A study of Neurospora crassa with 33 samples.

Results

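The 10 genes described here encode enzymes of glycolysis and ethanol fermentation in the filamentous fungus Neurospora crassa. They were chosen by locus identifier, not by any measured value, although earlier results of these data were known. They make up 10 of the 9729 genes listed. All 10 were among the 6686 genes whose levels were high enough to be tested. Glycolysis splits glucose into pyruvate and makes ATP on the way. In fermentation, pyruvate is decarboxylated to acetaldehyde, which is reduced to ethanol, and the NADH made in glycolysis is thereby turned back into NAD. Both pathways are used by N. crassa growing on sugar, and their enzymes are among the abundant proteins of fungal hyphae.

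By role, the enzymes fell into an upper part of glycolysis, a lower part and the fermentation branch. The upper part held hexokinase (emp-1, NCU02542), which phosphorylates glucose, phosphofructokinase (emp-3, NCU00629), which adds the second phosphate, aldolase (fba, NCU07807), which splits the resulting sugar, and triose-phosphate isomerase (tpi, NCU07550), which interconverts the products. The lower part held glyceraldehyde-phosphate dehydrogenase (gpd-1, NCU01528, also known as the clock-controlled gene ccg-7), phosphoglycerate kinase (pgk, NCU07914), enolase (emp-7, NCU10042) and pyruvate kinase (ace-8, NCU06075). Pyruvate decarboxylase (cfp, NCU02193) and alcohol dehydrogenase (adh-1, NCU01754) carry out the fermentation branch. The listed coding sequences were between 747 nt (tpi) and 2538 nt (emp-3) long.

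The strains compared were WT and Δcpc-3, in which the gene for CPC-3, a kinase of the translation factor eIF2α, is deleted. Each host carried 1 of 4 Flag-tagged reporters of the small protein EDP, placed at the csr-1 locus under the ccg-1 promoter in homokaryotic transformants: 1 or 3 tandem copies with WT codons (1× WT-EDP, 3× WT-EDP) or with optimized codons (1× OPT-EDP, 3× OPT-EDP). All libraries came from mycelia grown in Vogel's medium with 2% glucose, for 2 days in plates and then 12 h shaking in constant light, and cycloheximide (0.1 mg/ml) was added only with the lysis buffer. Ribosome protected fragments (RPFs, the pieces of mRNA covered by a translating ribosome) were sequenced in 12 WT and 13 Δcpc-3 libraries, 3 per strain and 4 for Δcpc-3 1× WT-EDP, and mRNA in 4 libraries per host, 1 per strain. The study's methods call the RPF libraries of a strain biological replicates, while the labels do not say whether each came from its own culture, so p-values across them measure only the spread between these libraries, which may be technical. Since the reporter differs between the 4 strains of a host, the spread among them includes any reporter effect.

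RPF libraries held between 1270403 and 10035081 reads and mRNA libraries between 938863 and 1747779. The 10 enzymes drew 653 to 30753 reads each in an mRNA library and 1030 to 323971 in an RPF library. The deleted gene cpc-3 had an mRNA level of 8.20 to 12.6 TPM in WT and 0.129 to 0.614 TPM in Δcpc-3, as the labels require. The hyphal marker hex-1 (Woronin body protein) was present throughout, at 2629 to 4019 TPM in the RPFs of WT and 1371 to 2220 TPM in those of Δcpc-3. The summed RPF level of 4 conidiation genes (eas, con-6, con-8, con-10), which mark another cell type that a culture in light can hold, was 1576 to 2325 TPM in WT and 3426 to 7055 TPM in Δcpc-3. Of these, eas and con-8 made up nearly all of the sum, con-6 had a median of 0 in the WT RPF libraries and con-10 a median of 0 in the mRNA libraries of both hosts. In bulk samples fewer cells of a type and less RNA per cell cannot be told apart, and the part of the conidiation genes in the results on the enzymes was not tested.

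The deposited tables list an FPKM for every gene with the 2 bounds of a confidence interval. Bounds of small read numbers, multiplied by the length of the coding sequence, were whole numbers times a constant of the library. Bounds of larger read numbers, which include most of those of the 10 enzymes, were not checked for this. The midpoint of the 2 bounds was taken for every gene as an estimate of the read count per kilobase of coding sequence. It is not exact. In WT 1× WT-EDP replicate 3 the reads summed over genes were 4997438, above a library total of 4929303 from the same constant. The reads of genes given here, and their shares, are such estimates. The FPKM differed from the midpoint by a factor that varied with gene and library and is not described in the sources used here. Both values were scaled to the same sum in each library (TPM, transcript levels corrected for gene length), and the results are given on both scales because they parted for the RPFs of these enzymes. TPM from FPKM and TPM from midpoints are not interchangeable as levels: 1 gene of 78 nt, NCU16635, had an FPKM 59.3 to 61.6 times its midpoint and took 10.01 to 38.3% of the FPKM-based total of an RPF library, which lowers the TPM of every other gene there.

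In WT, 8 of the 10 enzymes ranked among the 92 genes with the highest mRNA levels. By the mean FPKM-based level over the 4 strains, gpd-1 was highest at 13571 ± 470 TPM (SD, n = 4), which was rank 5 of 6686, followed by enolase at 9110 ± 280 TPM and rank 8. Aldolase (4141 ± 129 TPM), adh-1 (3596 ± 230), tpi (3358 ± 147), cfp (3273 ± 90.3), pgk (2958 ± 87.9) and ace-8 (1319 ± 77.7) came next. The enzymes that phosphorylate the sugar were far lower, emp-3 at 296 ± 16.8 TPM (rank 367) and hexokinase emp-1 at 217 ± 4.59 TPM (rank 458), against a median of 14.2 TPM over all tested genes. Neighbours in this order had separate ranges except adh-1, tpi and cfp, whose ranges over the 4 strains overlapped with one another. By midpoints gpd-1, enolase and aldolase were again the highest, and ace-8, emp-3 and emp-1 the lowest, but the order between them changed. There pgk (5984 to 6190 TPM) lay above tpi (5092 to 5930 TPM) and overlapped with cfp (5984 to 6858 TPM) and adh-1 (5555 to 6731 TPM). The enzymes of triose conversion, of the lower part and of fermentation thus stood well above the entry enzymes on a scale that is corrected for gene length. Together gpd-1 and enolase held 53.9 to 54.4% of the summed mRNA level of the 10 enzymes in WT and 49.6 to 50.4% in Δcpc-3.

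**Figure D1:**
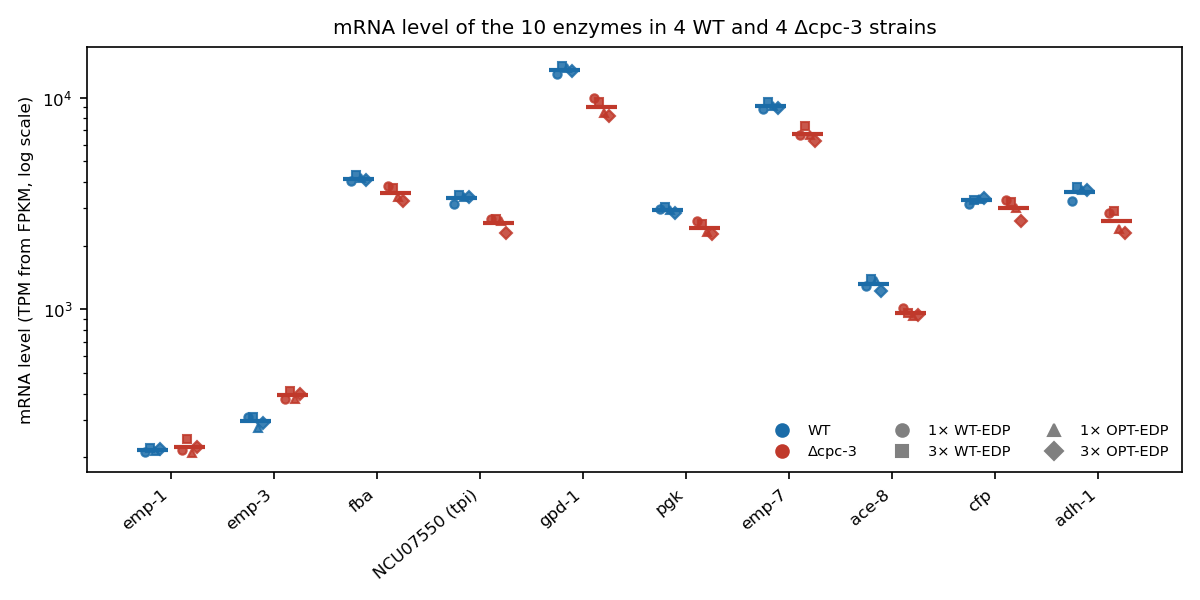
mRNA levels of the 10 enzymes (TPM from FPKM, log axis) in the 4 WT and 4 Δcpc-3 strains, with 1 point per strain. The levels run from about 210 TPM (emp-1) to 14061 TPM (gpd-1), and the points of the hosts are separate for all enzymes except emp-1 and cfp. The share of all tested genes with separate hosts was not counted.

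The comparison of hosts for mRNA asked whether loss of CPC-3 came with other transcript levels. Transcripts of 5 enzymes were lower in Δcpc-3, those of tpi, gpd-1, enolase, pyruvate kinase and adh-1, and that of phosphofructokinase (emp-3) was higher. The genes that fell included the most abundant transcripts of the group, and the falls were to between 0.665 and 0.762 of the WT mean. Over all tested genes 3.71% were called lower and 18.5% higher in the same test (limma, Benjamini-Hochberg adjusted p under 0.05), and the median gene was 0.27 higher in Δcpc-3 on the log2 scale, against a median of -0.34 for the 10 enzymes.

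In the upper part of glycolysis, emp-1 mRNA was at 211, 222, 215 and 220 TPM in the WT strains, in the order 1 and 3 copies with WT codons and then 1 and 3 copies with OPT codons that is used throughout, and at 217, 244, 210 and 224 TPM in the Δcpc-3 strains. These ranges overlapped, and the log2 difference of 0.04 ± 0.10 (SE; limma adjusted p = 0.795) was within the spread between strains. For emp-3 the levels were 309, 311, 275 and 291 TPM in WT and 379, 414, 377 and 400 TPM in Δcpc-3. Every Δcpc-3 strain lay above every WT strain, with a log2 difference of 0.41 ± 0.10 (limma adjusted p = 0.0282). Aldolase transcripts were at 4023, 4316, 4154 and 4072 TPM in WT and at 3832, 3731, 3378 and 3234 TPM in Δcpc-3. The hosts did not overlap for aldolase, but the difference of -0.23 ± 0.11 did not pass the test (limma adjusted p = 0.158). For tpi, WT had 3143, 3478, 3414 and 3396 TPM and Δcpc-3 had 2662, 2669, 2614 and 2287 TPM. The transcript fell by 0.39 ± 0.11 on the log2 scale (limma adjusted p = 0.0352), with the Δcpc-3 3× OPT-EDP strain the lowest.

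In the lower part, gpd-1 showed the largest change among the 10. Its mRNA was at 12998, 14061, 13824 and 13401 TPM in WT and at 9915, 9502, 8484 and 8207 TPM in Δcpc-3, and the log2 difference was -0.59 ± 0.11 (limma adjusted p = 0.00997). Phosphoglycerate kinase, the next enzyme of the pathway, was at 2978, 3060, 2948 and 2847 TPM in WT and at 2625, 2542, 2315 and 2268 TPM in Δcpc-3. The hosts were separate, yet its difference of -0.28 ± 0.10 missed the threshold (limma adjusted p = 0.088). Enolase, which makes phosphoenolpyruvate, was at 8863, 9492, 9144 and 8943 TPM in WT and at 6700, 7346, 6649 and 6272 TPM in Δcpc-3, and fell by 0.44 ± 0.10 (limma adjusted p = 0.0224). Pyruvate kinase, which makes pyruvate and ATP, was at 1289, 1400, 1361 and 1225 TPM in WT and at 1012, 965, 930 and 938 TPM in Δcpc-3. Again no strain of one host reached the other, and the difference was -0.45 ± 0.10 (limma adjusted p = 0.0194).

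In the fermentation branch the 2 enzymes differed in whether they passed the test. Pyruvate decarboxylase mRNA was at 3141, 3300, 3307 and 3345 TPM in WT and at 3277, 3228, 2997 and 2604 TPM in Δcpc-3, with overlapping ranges and a log2 difference of -0.12 ± 0.11 (limma adjusted p = 0.486). Alcohol dehydrogenase was at 3257, 3771, 3673 and 3684 TPM in WT and at 2859, 2903, 2407 and 2304 TPM in Δcpc-3, with no overlap and a difference of -0.46 ± 0.12 (limma adjusted p = 0.0348). Whether the changes of these 2 enzymes differed from each other was not tested.

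The interval midpoints gave the same calls for mRNA, 5 lower and 1 higher with the same genes in each direction, against 3.81% lower and 21.2% higher over all genes tested on that scale. The differences ran from -0.57 ± 0.09 for gpd-1 to 0.43 ± 0.09 for emp-3. In reads estimated from the midpoints, the 10 enzymes took 8.26 to 9.29% of the reads of a WT mRNA library and 6.37 to 6.78% of those of a Δcpc-3 library. With each library centred on its median gene, which takes out the upward shift of the typical gene in Δcpc-3, 8 enzymes were called lower and none higher, with a median of -0.68, and emp-3 was no longer called. Over all genes the centred fit called 932 lower and 457 higher in place of 248 and 1239. With any reporter left out in both hosts, which leaves 3 strains per host, 0 or 1 of the 5 lower calls remained and emp-3 was not called, against 0.808 to 2.03% of genes lower and 6.48 to 12.0% higher, although every called difference kept its direction. The call that remained was gpd-1, without 1× WT-EDP, and at an unadjusted p under 0.05 limma still had 5 or 6 enzymes lower and emp-3 higher each time.

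The RPF level of a gene is its share of the footprints of a library, corrected for gene length. It depends on the amount of its mRNA, on how densely that mRNA is translated and on the footprints of all other genes. From the FPKM, the RPF levels of 8 enzymes were lower in Δcpc-3 than in WT and none was higher. The 4 enzymes of the lower part of glycolysis fell most, to 0.423 to 0.446 of the WT mean, while hexokinase and phosphofructokinase were at 0.871 and 0.824 of it and did not pass the test. The background in that test was 38.9% of genes lower and 15.1% higher, or 2604 and 1008 genes, which became 2023 and 1684 with libraries centred on the median gene, where the same 8 enzymes were lower. From the midpoints most of this difference was not there: 2 enzymes were lower and 2 were higher, against 22.5% and 21.3% of all genes.

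For gpd-1, the RPF level from FPKM was 13334, 14387, 15654 and 15637 TPM in the WT strains and 8749, 5546, 5672 and 5110 TPM in the Δcpc-3 strains, with the replicates of a strain merged. All Δcpc-3 strains were below all WT strains, and the 1× WT-EDP strain stood above the other Δcpc-3 strains. The log2 difference was -1.27 ± 0.16 (limma adjusted p = 0.00018). From the midpoints, the same libraries gave 27115, 28542, 29367 and 31977 TPM in WT and 24421, 24944, 24546 and 26033 TPM in Δcpc-3. The hosts were still separate, and the difference was -0.23 ± 0.07 (limma adjusted p = 0.0304).

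Phosphoglycerate kinase RPFs were at 3247, 3267, 3425 and 3415 TPM in WT and at 2041, 1195, 1188 and 1227 TPM in Δcpc-3 from FPKM, a difference of -1.28 ± 0.17 (limma adjusted p = 0.0002). From midpoints they were at 7745, 7436, 7393 and 7739 TPM in WT and at 6623, 6636, 6497 and 7781 TPM in Δcpc-3. Here the Δcpc-3 3× OPT-EDP strain lay above all WT strains, and the difference of -0.14 ± 0.08 did not pass the test (limma adjusted p = 0.16). Enolase had 8871, 9053, 10345 and 9473 TPM in WT and 5360, 3671, 3716 and 3366 TPM in Δcpc-3 from FPKM, which was -1.25 ± 0.14 (limma adjusted p = 0.00011). Its midpoint difference was -0.18 ± 0.07, with separate hosts, and narrowly missed the threshold (limma adjusted p = 0.0519). Pyruvate kinase had 1358, 1462, 1582 and 1485 TPM in WT and 949, 578, 557 and 540 TPM in Δcpc-3 from FPKM, a difference of -1.21 ± 0.17 (limma adjusted p = 0.00032). The midpoints kept it lower in Δcpc-3, by a smaller amount of -0.19 ± 0.06 (limma adjusted p = 0.0412).

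Aldolase and tpi, which feed the lower part, fell by 0.85 ± 0.15 (limma adjusted p = 0.0011) and 0.79 ± 0.16 (limma adjusted p = 0.0021) from FPKM. Aldolase RPFs were at 4966, 5212, 5583 and 5215 TPM in WT and at 4047, 2694, 2673 and 2425 TPM in Δcpc-3. On the midpoint scale aldolase was at 10022, 10076, 10424 and 10030 TPM in WT and at 10296, 10380, 10359 and 10284 TPM in Δcpc-3. The Δcpc-3 values fell inside the WT range there, with a difference of 0.03 and a 95% interval of -0.10 to 0.15. For tpi the midpoint difference was 0.03 as well, with an interval of -0.13 to 0.19.

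The enzymes that phosphorylate the sugar changed in the opposite sense on the midpoint scale. Hexokinase RPFs were at 471, 471, 467 and 467 TPM in WT and at 540, 520, 547 and 526 TPM in Δcpc-3 by midpoints. No strains overlapped, and the difference was 0.19 ± 0.06 (limma adjusted p = 0.0263). Phosphofructokinase was at 604, 597, 629 and 604 TPM in WT and at 723, 652, 699 and 731 TPM in Δcpc-3 by midpoints, which was higher by 0.20 ± 0.06 (limma adjusted p = 0.0307). From FPKM, the differences of these genes were -0.20 ± 0.09 (limma adjusted p = 0.0895) and -0.29 ± 0.11 (limma adjusted p = 0.0512), and the hosts overlapped for both.

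Both fermentation enzymes had lower RPF levels in Δcpc-3 by FPKM. Pyruvate decarboxylase was at 3610, 3743, 4235 and 4170 TPM in WT and at 3272, 2427, 2447 and 2172 TPM in Δcpc-3, a difference of -0.62 ± 0.13 (limma adjusted p = 0.0029). By midpoints it was at 7211, 7411, 7981 and 8466 TPM in WT and at 7840, 7845, 7909 and 7753 TPM in Δcpc-3, where the WT range enclosed all Δcpc-3 strains. Its midpoint difference was 0.02, with a 95% interval of -0.14 to 0.17. Alcohol dehydrogenase was at 3664, 4449, 5015 and 4902 TPM in WT and at 3589, 2417, 2267 and 2215 TPM in Δcpc-3 by FPKM, a difference of -0.80 ± 0.17 (limma adjusted p = 0.0028). By midpoints the hosts overlapped and the difference of -0.18 ± 0.09 did not pass the test (limma adjusted p = 0.155).

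The single libraries showed where the scales parted. The summed RPF level of the 10 enzymes from FPKM was 40188 to 48311 TPM in the 8 WT libraries numbered 1 and 2 and 53044 to 61660 TPM in the 4 WT libraries numbered 3. In Δcpc-3 it was 34604 to 36071 TPM in replicates 1 to 3 of the 1× WT-EDP strain, 20705 TPM in replicate 4 of it, and 18763 to 21685 TPM in the 9 libraries of the other reporters. The hosts did not overlap, but replicate 4 of Δcpc-3 1× WT-EDP sat with the other Δcpc-3 strains and not with its own strain. The share of all reads that fell on the 10 enzymes was 10.02 to 11.6% in WT and 9.70 to 10.7% in Δcpc-3, with overlapping ranges. The same libraries stood apart in that share by far less and in the other direction. WT replicate 3 was below replicates 1 and 2 in each strain (10.02% against 10.47 and 10.53% with 1× WT-EDP), and replicate 4 of Δcpc-3 1× WT-EDP was at 10.57% against 9.70 to 10.04% in replicates 1 to 3.

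**Figure D2:**
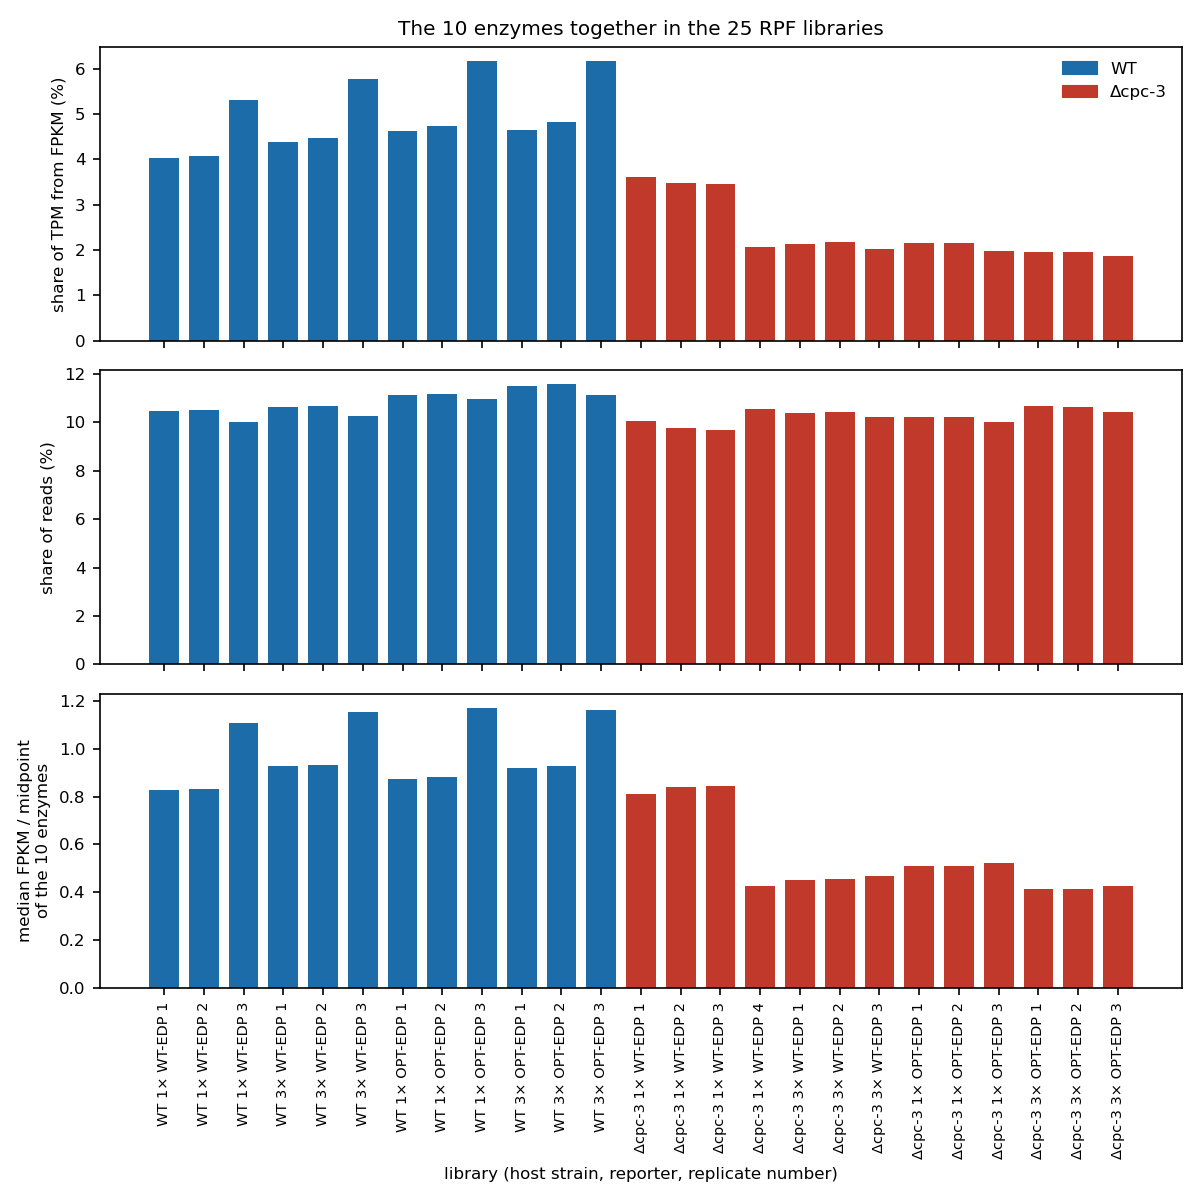
The 10 enzymes together in each of the 25 RPF libraries (1 bar per library, by host, reporter and replicate number), as their share of the FPKM-based TPM (%), their share of reads (%) and the median ratio of FPKM to interval midpoint. The share of TPM is 1.88 to 3.61% in Δcpc-3 and 4.02 to 6.17% in WT, with the first 3 libraries of Δcpc-3 1× WT-EDP above its replicate 4, and the ratio shows the same steps, whereas the share of reads stays between 9.70 and 11.6% in all libraries.

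The ratio of FPKM to midpoint followed the same division of the libraries. Its median over the 10 enzymes was 0.827 to 0.933 in WT replicates 1 and 2, 1.11 to 1.17 in WT replicates 3, 0.810 to 0.845 in replicates 1 to 3 of Δcpc-3 1× WT-EDP, 0.427 in its replicate 4 and 0.414 to 0.522 in the Δcpc-3 libraries with another reporter. The enzymes were not alone in this. Over the 100 other genes with the most reads and at least 747 nt of coding sequence, the medians in the same classes of libraries were 0.829 to 0.923, 1.00 to 1.08, 0.792 to 0.847, 0.437 and 0.423 to 0.525. Over all genes with reads they lay between 0.790 and 1.04, so the step was larger for highly read genes such as these. In the mRNA libraries the ratio of the enzymes was 1.06 to 1.10 in both hosts. What made the ratio differ between libraries was not tested.

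Within each reporter the hosts were compared over the replicate RPF libraries, which are the same libraries as above. From FPKM, 4 enzymes (gpd-1, pgk, enolase and pyruvate kinase) were lower in Δcpc-3 with 1× WT-EDP, where 23.1% of all genes were. With 3× WT-EDP 9 were lower, all but hexokinase, against 34.1%, with 1× OPT-EDP all 10 against 41.9%, and with 3× OPT-EDP all 10 against 32.0%. The largest fall was that of gpd-1 with 3× OPT-EDP, at -1.69 ± 0.19 (limma adjusted p = 1.2e-06), and its fall with 1× WT-EDP was -0.71 ± 0.18 (limma adjusted p = 0.0042). Without replicate 4 of Δcpc-3 1× WT-EDP, 2 enzymes instead of 4 were lower with that reporter, against 19.9% of genes, the median of the 10 moved from -0.32 to -0.13, and 2 differences turned positive. Without the WT replicates 3 as well, 4 were lower and 2 higher, against 17.0% and 17.1% of genes, with a median of -0.02. Leaving out replicate 1, 2 or 3 of every strain left 2 lower with that reporter, against 13.2 to 17.4% of genes.

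From midpoints the counts within reporters were smaller and went both ways. With 1× WT-EDP 2 enzymes were lower and 3 higher, against 17.6% and 20.8% of genes, and with 3× WT-EDP 2 were lower and 1 higher, against 19.6% and 11.0%. With 1× OPT-EDP 5 were lower and 1 higher, against 16.9% and 13.4%, and with 3× OPT-EDP 2 were lower and 2 higher, against 12.6% and 14.0%. Hexokinase was higher in Δcpc-3 with each of the 4 reporters, by 0.17 to 0.23 on the log2 scale. Of the lower part, gpd-1 was called lower with both OPT-EDP reporters, and pgk with all reporters but 3× OPT-EDP.

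The difference between hosts varied between reporters for 2 enzymes from FPKM, tpi (range of the 4 differences 1.00, limma adjusted p = 0.0373) and adh-1 (range 1.13, limma adjusted p = 0.0165), where 4.01% of all genes passed. This count changed with the libraries used and with the model. It was 9 without replicate 4 of Δcpc-3 1× WT-EDP, where 21.0% of all genes passed. With replicate number as a block it was also 9, where 23.5% of all genes passed. Without replicate 1, 2 or 3 of every strain, which takes out 8 libraries at a time, limma passed 0 enzymes (1 to 4 at an unadjusted p under 0.05) and 0.0747 to 1.26% of all genes. From midpoints only adh-1 passed (range 0.51, limma adjusted p = 0.0016), where 5.26% of genes did. Its midpoint RPF level in WT was 6596 ± 81.7 TPM (SD, n = 3) with 1× WT-EDP, 7804 ± 157 with 3× WT-EDP, 8545 ± 35.3 with 1× OPT-EDP and 8755 ± 425 with 3× OPT-EDP. In Δcpc-3 it was 7314 ± 445 TPM (SD, n = 4) with 1× WT-EDP, 6947 ± 48.3 with 3× WT-EDP, 6643 ± 77.0 with 1× OPT-EDP and 6940 ± 72.1 with 3× OPT-EDP. The level of adh-1 was thus lowest in WT and highest in Δcpc-3 with 1× WT-EDP, where replicate 4 was at 6678 TPM and the others at 7389 to 7710 TPM. The host difference was 0.15 ± 0.05 with 1× WT-EDP (limma adjusted p = 0.0382), -0.17 ± 0.06 with 3× WT-EDP (limma adjusted p = 0.034), -0.36 ± 0.06 with 1× OPT-EDP (limma adjusted p = 7.8e-05) and -0.33 ± 0.06 with 3× OPT-EDP (limma adjusted p = 0.00024).

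The codons and the copy number of the reporter were compared within each host. In WT, RPF levels from FPKM with OPT codons differed from those with WT codons by 0.02 to 0.31 over the 10 enzymes, with limma adjusted p from 0.43 to 0.99, and by -0.03 to 0.16 between 3 copies and 1, with adjusted p of 1. The spread in these WT tests included the step between the libraries numbered 3 and those numbered 1 and 2 described above. Differences smaller than that spread could be missed. In Δcpc-3 the differences were -0.40 to -0.16 for codons and -0.41 to -0.09 for copies, and only tpi passed, lower with 3 copies (limma adjusted p = 0.044), where 1.97% of all genes were lower with 3 copies and 3.81% with OPT codons. At an unadjusted p under 0.05, 7 enzymes were lower in each of these Δcpc-3 comparisons. With replicate number as a block, 10 were called lower with OPT codons and 9 with 3 copies in Δcpc-3. The share of all genes is not given here for these counts, nor for other counts at an unadjusted p. Without replicate 4 of Δcpc-3 1× WT-EDP, the remaining libraries of that strain lay higher, and 8 enzymes were called lower with OPT codons, against 23.7% of genes, and 9 with 3 copies, against 14.6%. With all libraries, the 95% intervals of these differences in both hosts lay between -0.74 and 0.56. From midpoints, adh-1 was higher with OPT codons in WT by 0.27 (limma adjusted p = 0.00069), pgk was higher with 3 copies in Δcpc-3 by 0.13 (limma adjusted p = 0.033), and no other enzyme passed. The share of all genes called in these midpoint comparisons is not given here. On both scales the Δcpc-3 comparisons contain the 4 libraries of 1× WT-EDP on one side.

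Ribosome density, the RPF level divided by the mRNA level of the same strain, asks whether an mRNA carries more or fewer ribosomes than its amount accounts for. As both levels are shares of a library, density is relative to the other genes. In WT it was close to that of the typical gene or above it, with the enzymes at percentile 54.2 (emp-3) to 83.5 (fba) of all tested genes from FPKM and at 65.7 to 93.4 from midpoints. From FPKM, the density of 7 enzymes was lower in Δcpc-3, against 37.7% of all genes, and that of none was higher, against 2.09%. From midpoints the direction turned for 9 of the 10: none was lower, against 19.4% of genes, and tpi and gpd-1 were higher, against 2.12%. At an unadjusted p under 0.05 the limma test on midpoints had 0 enzymes lower and 6 higher.

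From FPKM, the density of pgk fell most. It was 1.09, 1.07, 1.16 and 1.20 in the WT strains and 0.778, 0.470, 0.513 and 0.541 in the Δcpc-3 strains, with a log2 difference of -0.999 ± 0.18 (limma adjusted p = 0.0046). The ratio of the average densities was 0.510, so that no enzyme reached a ratio of 0.5, while 14.3% of all genes were called lower at that ratio. Enolase was at 1.00, 0.954, 1.13 and 1.06 in WT and at 0.800, 0.4997, 0.559 and 0.537 in Δcpc-3, a difference of -0.81 ± 0.17 (limma adjusted p = 0.0089). For gpd-1 the values were 1.03, 1.02, 1.13 and 1.17 in WT and 0.882, 0.584, 0.669 and 0.623 in Δcpc-3, which gave -0.67 ± 0.16 (limma adjusted p = 0.0132). Pyruvate kinase had a difference of -0.75 ± 0.18, phosphofructokinase of -0.69 ± 0.16, aldolase of -0.63 ± 0.15 and pyruvate decarboxylase of -0.51 ± 0.14, all past the threshold. The hosts did not overlap for any of these 7, and in each of them the 1× WT-EDP strain was the highest of the Δcpc-3 strains. How many of all tested genes had separate hosts was not counted on either scale. Without replicate 3 of each WT strain and replicate 4 of Δcpc-3 1× WT-EDP, 3 enzymes remained past the threshold, emp-3, pgk and enolase, against 27.1% of all genes. Leaving out a whole strain pair left 9 past it without 1× WT-EDP, against 36.1% of genes, 2 without 3× WT-EDP, against 21.4%, and 1 without either OPT-EDP reporter, against 17.9 and 18.5%.

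For the remaining 3 the hosts overlapped. The density of tpi was 1.23, 1.18, 1.31 and 1.31 in WT and 1.27, 0.858, 0.910 and 0.841 in Δcpc-3, so that the Δcpc-3 1× WT-EDP strain lay within the WT range. Its difference was -0.39 ± 0.16 (limma adjusted p = 0.0855), and those of adh-1 and emp-1 were -0.34 ± 0.16 (limma adjusted p = 0.13) and -0.25 ± 0.13 (limma adjusted p = 0.176). The median difference of the 10 enzymes was -0.65 and that of all genes -0.52. With densities centred on the median gene, the median of the enzymes was -0.15, limma called 0 of them lower, and the values of emp-1, tpi and adh-1 turned positive, at 0.26, 0.11 and 0.17. At an unadjusted p under 0.05 the centred fit had 1 of them lower, pgk being the furthest down at -0.50, and over all genes it called 514 lower and 496 higher in place of 2522 and 140.

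From midpoints, the density of tpi was 1.34, 1.26, 1.27 and 1.30 in WT and 1.71, 1.74, 1.73 and 1.70 in Δcpc-3. The groups were well apart, and the difference was 0.41 ± 0.09 (limma adjusted p = 0.0161). For gpd-1 the densities were 1.14, 1.10, 1.09 and 1.20 in WT and 1.34, 1.42, 1.47 and 1.54 in Δcpc-3, a difference of 0.35 ± 0.10 (limma adjusted p = 0.039). With reporter as a replicate block, neither the call of tpi nor that of gpd-1 remained. Aldolase, enolase, pyruvate kinase, pyruvate decarboxylase and adh-1 had values of 0.11 to 0.26 with hosts that did not overlap, none past the threshold, and emp-1 and pgk had 0.12 and 0.13 with hosts that did. Phosphofructokinase alone had a negative value, -0.23 ± 0.10 (limma adjusted p = 0.155), with separate hosts. The median of the enzymes was 0.23 and that of all genes -0.32. With midpoint densities centred on the median gene, which was chosen as a setting after the data had been seen, 9 enzymes were called higher, against 8.21% of genes, the median was 0.55, and emp-3 had 0.09.

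**Figure D3:**
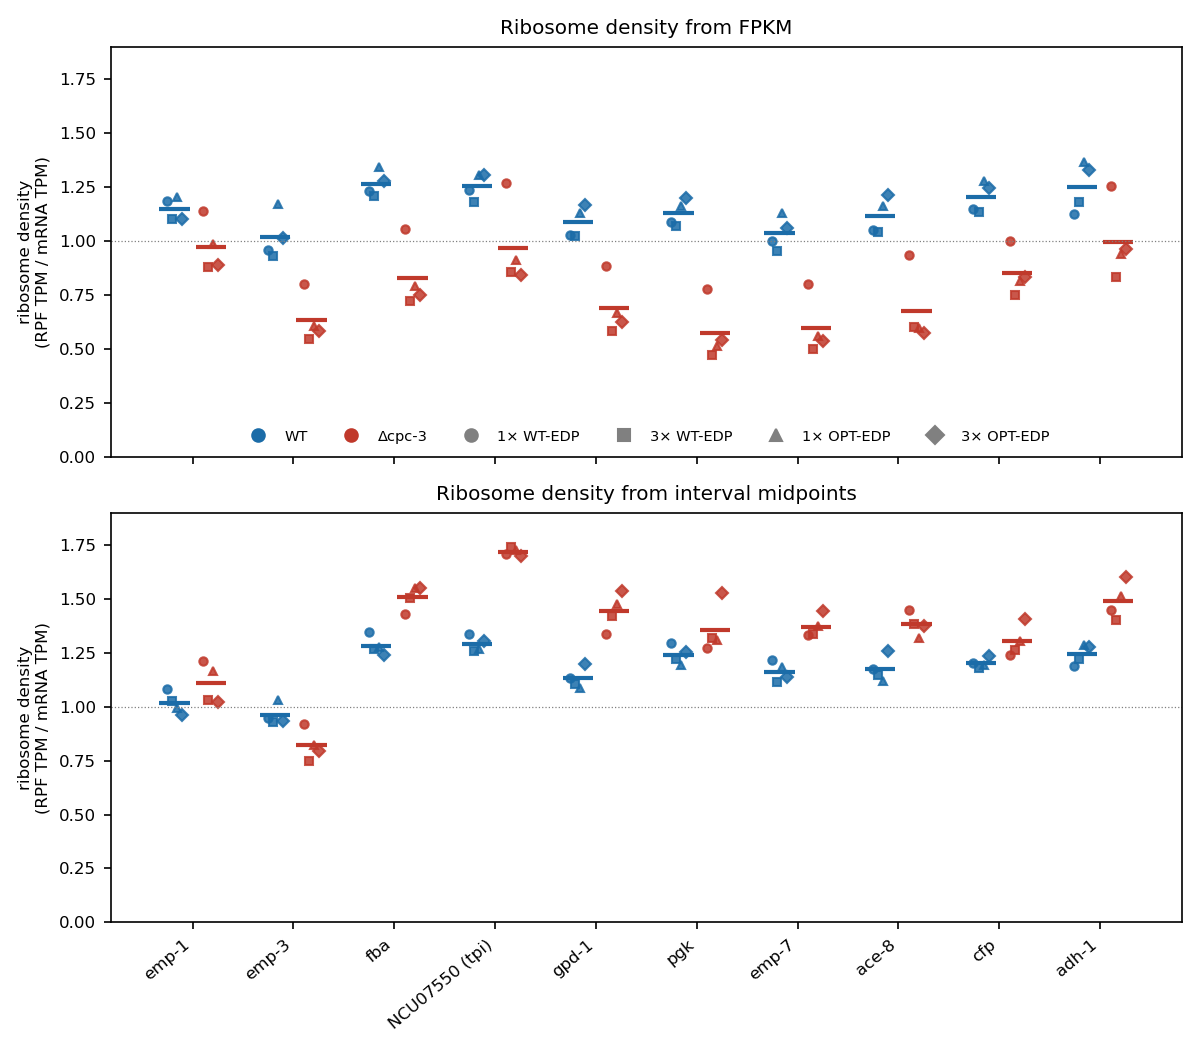
Ribosome density (RPF TPM over mRNA TPM) of the 10 enzymes in the 4 WT and 4 Δcpc-3 strains, from FPKM and from interval midpoints. From FPKM the Δcpc-3 points lie below the WT points for 7 enzymes. From midpoints they lie above them for 7 and below them for emp-3. The share of all tested genes with separate hosts was not counted.

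**Figure D4:**
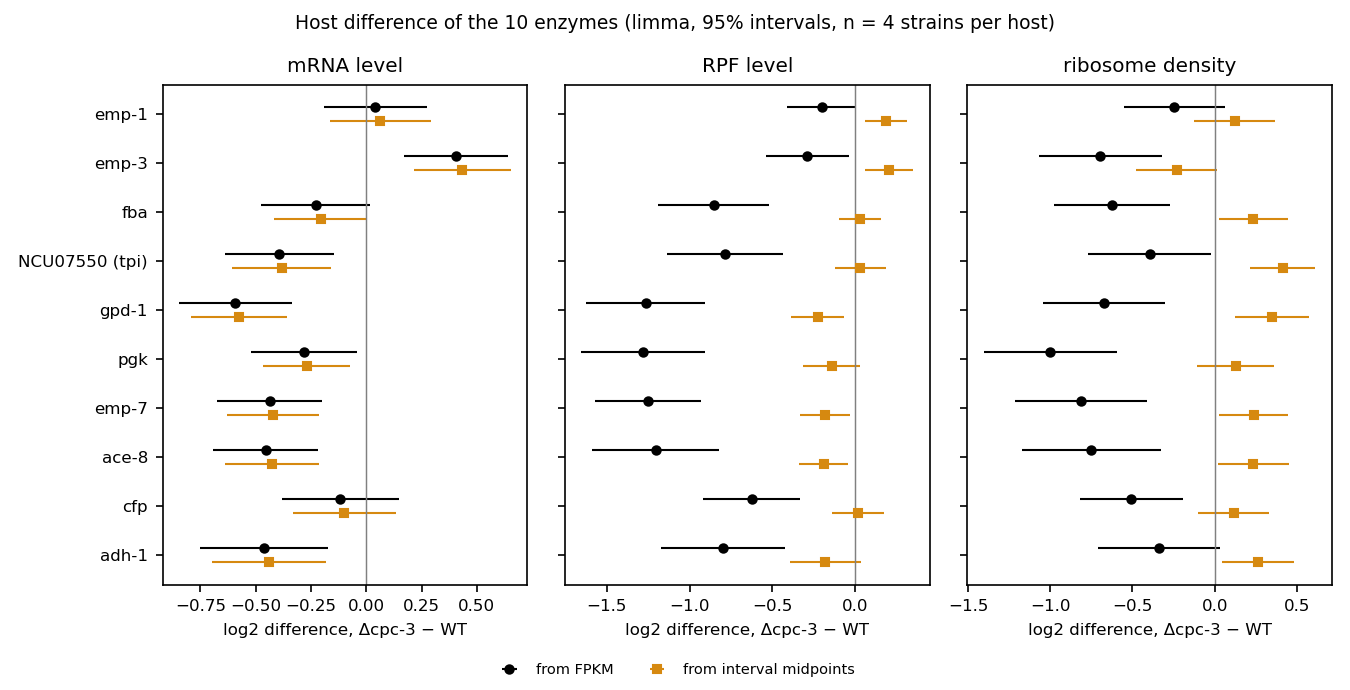
Log2 differences between Δcpc-3 and WT in mRNA level, RPF level and ribosome density for each enzyme, with 95% intervals from limma (n = 4 strains per host), from FPKM and from interval midpoints. The scales nearly coincide for mRNA, whereas the RPF and density differences from FPKM lie to the left of those from midpoints for all 10 enzymes.

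Other genes around the pathway were counted from a list of 12, of which 11 were tested: NCU00575, emp-6, phosphoglucose isomerase (gpi-1), fructose bisphosphatase (fbp-1), pyruvate dehydrogenase subunits (ace-2, ace-3, ace-4), citrate synthase (cit-1), acetyl-CoA synthetase (acu-5), phosphoenolpyruvate carboxykinase (acu-6) and the glucose transporter hgt-1. Their mRNA from FPKM was lower in Δcpc-3 for cit-1 only (-0.45, limma adjusted p = 0.0428), against 3.71% of all genes, and their median was -0.21, against 0.27 for all genes. Their density from FPKM was lower for 10 of the 11, all but acu-6, against 37.7% of all genes, with a median of -0.81, against -0.52. From midpoints 2 were lower in density, acu-5 and hgt-1, against 19.4% of genes, and acu-6 was higher, against 2.12%, with a median of -0.06, against -0.32. The levels of hgt-1 were close to the filter of 1 TPM, so its density is uncertain on both scales. From FPKM its mean RPF level was 2.70 TPM in WT and 0.617 TPM in Δcpc-3.

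Across the 25 RPF libraries, the genes whose FPKM-based level followed the summed level of the 10 enzymes most closely were ppm-2 (Pearson's r = 0.997), NCU07153 (0.996), NCU04370 (0.995), NCU08004 (0.995) and hsp70-1 (0.995). By midpoints the same pairs had r of 0.706 to 0.870. These values are descriptive, since the libraries share hosts, strains and the step in the ratio of FPKM to midpoint described above.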

How the data were processed

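RPFs and mRNA of N. crassa mycelia were sequenced by the authors, and 1 table per library was deposited. The submitters' processing notes name Bowtie2 and Cufflinks; versions, genome build and annotation are not given in the sources used here. The deposited FPKM values were made by the authors, with interval bounds and a coverage (signal) column that the authors also deposited and that was not used for tests. Symbols came from a RefSeq gene table, in which 9728 of 9729 identifiers matched, and no coordinates or sequences are given.

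FPKM, or the midpoint of the interval, was scaled to TPM. RPF replicates were merged by read-weighted means, density was (RPF TPM + 0.1)/(mRNA TPM + 0.1), and genes with a mean of at least 1 TPM were kept. Differences were tested on log2(TPM + 0.1), or log2 density, with limma 3.58.1 in R 4.3.3 over all kept genes (6686 from FPKM, 6979 from midpoints), with Benjamini-Hochberg adjusted p under 0.05 as the threshold. The 4 reporter strains were the replicates of a host, as in the study's methods, and within reporters the RPF libraries were. Tables and plots were made with Python 3.11.15. The scripts were tested on simulated data. Pairs of replicate RPF libraries gave a chi-square of reads over degrees of freedom of 2.02 to 30.8. Pairs with replicate 4 of Δcpc-3 1× WT-EDP gave 16.1 to 30.8, and WT pairs with replicate 3 gave 5.11 to 6.71. All other pairs gave 2.02 to 2.77, so these libraries also stood apart in estimated reads over all genes. The reads were estimates from the interval bounds, whose error can also raise this value. The test therefore cannot decide whether a pair came from the same library, and none was merged as a repeat.

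The 10 enzymes and the lists were chosen with earlier results of these data known. The rule for named genes was all 10 enzymes, cpc-3, NCU16635, and genes of the pathway list where called. The sources gave no product names, so that list was taken by symbol or locus. Alternatives tried were other pseudocounts and filters, midpoints, median centring, a replicate block, NCU16635 left out of the sum, and each strain or replicate left out.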

Additional observations from a re-analysis of the deposited data

Results flagged for a closer look

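Among 70 groups of 4 samples of the enzymes, 18 held a value far from the other 3; chance gives about 1 in 20, and the groups share libraries, so they are not separate events. In 9 of them the value was the lowest of the 4 RPF libraries of Δcpc-3 1× WT-EDP, and each time it was replicate 4: 222 TPM for emp-3 (next 319), 2694 for aldolase (next 4368), 2185 for tpi, 5389 for gpd-1 (next 9341), 1158 for pgk, 3560 for enolase, 535 for pyruvate kinase, 2493 for pyruvate decarboxylase and 2259 for adh-1, all from FPKM.

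In another 8 groups the Δcpc-3 1× WT-EDP strain was the highest of the 4 Δcpc-3 strains. These were the RPF levels of emp-3 (303 TPM), aldolase (4047), gpd-1 (8749), pgk (2041), pyruvate kinase (949) and adh-1 (3589), and the densities of tpi (1.27) and pyruvate kinase (0.937). The last was the mRNA of tpi in Δcpc-3, whose lowest strain, 3× OPT-EDP, had 2287 TPM with the next at 2614.

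The difference between hosts in RPF level varied between the 4 reporters, by an interaction test, for tpi, with a range of 1.00 on the log2 scale (limma adjusted p = 0.0373), and for adh-1, with a range of 1.13 (limma adjusted p = 0.0165).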

How the results depend on the processing

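Of 64 results, each was recomputed under the alternatives that applied to it, 21 in all, 2 of which (midpoints with median centring, midpoints with a replicate block) were chosen after the data had been seen. No difference of an enzyme changed direction under a pseudocount of 1 TPM, a minimum of 10 TPM or none, a trended prior variance, unweighted merging or a strain pair left out. Of 110 differences over all comparisons, 45 turned with interval midpoints, 7 with median centring, 3 with NCU16635 out of the sum, 2 with the replicate block, 2 without replicate 4 of Δcpc-3 1× WT-EDP and 6 without it and WT replicates 3. Of the 80 within reporters or for codons and copies, 0 to 3 turned with 1 replicate number left out. Many counts of enzymes below come without the share of all genes called under the same setting. Such counts do not separate a change of the enzymes from a general shift.

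With midpoints, density differences turned positive for emp-1 (0.12), fba (0.23), tpi (0.41), gpd-1 (0.35), pgk (0.13), emp-7 (0.24), ace-8 (0.23), cfp (0.11) and adh-1 (0.26), with a median of 0.23, and 0 enzymes were lower and 2 higher in place of 7 and 0. RPF differences turned positive for emp-1 (0.19), emp-3 (0.20), fba (0.0272), tpi (0.0313) and cfp (0.0157), and 2 were lower and 2 higher in place of 8 and 0. Within reporters the counts lower and higher became 2 and 3 for 1× WT-EDP (median 0.0575), 2 and 1 for 3× WT-EDP, 5 and 1 for 1× OPT-EDP and 2 and 2 for 3× OPT-EDP. For OPT codons, 1 was higher in WT, and the median in Δcpc-3 was 0.0117. For 3 copies in Δcpc-3, 0 were lower and 1 higher. The host difference varied between reporters for 1.

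With median centring, 0 densities were lower, those of emp-1 (0.26), tpi (0.11) and adh-1 (0.17) turned positive, and mRNA had 8 lower and 0 higher with emp-1 at -0.30. OPT codons in WT then had 1 higher, 3 copies in Δcpc-3 had 5 lower, and 6 host differences varied between reporters, against 5.91% of all genes. With midpoints centred, density had 0 lower and 9 higher, at 0.44 (emp-1), 0.0886 (emp-3), 0.55 (fba), 0.73 (tpi), 0.67 (gpd-1), 0.45 (pgk), 0.56 (emp-7), 0.55 (ace-8), 0.43 (cfp) and 0.58 (adh-1), median 0.55. mRNA had 8 lower and 0 higher with emp-1 at -0.31, and RPFs had 2 lower and 2 higher with emp-1 at 0.17, emp-3 at 0.19, fba at 0.0099 and tpi at 0.014. Within reporters the counts higher were 1, 2 (median 0.0328), 2 and 1 in the usual order and the counts lower 0 for 3× WT-EDP and 2 for each OPT-EDP. OPT codons in WT had 1 higher and a median of 0.00600 in Δcpc-3, and 3 copies in Δcpc-3 had 0 lower and 1 higher with a median of 0.0576. The host difference varied between reporters for 1, against 5.44% of all genes.

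The deviations of libraries with the same replicate number correlated at -0.093 to 0.299 over 84 pairs, and those of strains with the same reporter at -0.016 to 0.058 for density, -0.052 to 0.067 for mRNA and -0.11 to 0.18 for RPFs, so the numbers and reporters were not taken to pair the samples. In WT alone the number 3 libraries did deviate together (0.197 to 0.299 over 6 pairs), those numbered 1 and 2 less so (0.016 to 0.225 and -0.00068 to 0.111). With reporter or number as a replicate block, density had 4 lower and mRNA 1 lower and 0 higher. OPT codons had 1 higher in WT and 10 lower in Δcpc-3, and 3 copies in Δcpc-3 had 9 lower. The host difference varied between reporters for 9, against 23.5% of all genes. With midpoints and the replicate block, density had 0 lower and 0 higher (2 higher at an unadjusted p under 0.05), so that the calls of tpi and gpd-1 were lost, with the values and median of the unblocked midpoints (0.12, 0.23, 0.41, 0.35, 0.13, 0.24, 0.23, 0.11, 0.26), mRNA had 1 lower and 0 higher, and RPFs had 0 lower and 0 higher (2 each at an unadjusted p under 0.05) with the midpoint values 0.19, 0.20, 0.0272, 0.0313 and 0.0157. Within reporters 3 were higher for 1× WT-EDP (median 0.0420), 4 lower and 2 higher for 3× WT-EDP, 5 and 2 for 1× OPT-EDP and 4 and 2 for 3× OPT-EDP. OPT codons had 3 higher in WT and 1 higher in Δcpc-3 (median 0.0148), and 3 copies in Δcpc-3 had 0 lower and 2 higher.

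Without replicate 4 of Δcpc-3 1× WT-EDP, 2 enzymes were lower with 1× WT-EDP and OPT codons had 1 higher in WT. In Δcpc-3, 8 were lower with OPT codons, against 23.7% of all genes, and 9 with 3 copies, against 14.6%. The host difference varied for 9, against 21% of all genes. Without that replicate and without WT replicates 3, density had 3 lower and 1× WT-EDP 2 higher. OPT codons then had 2 higher in WT and 10 lower in Δcpc-3, and 3 copies had 10 lower. The host difference varied for 10, against 28.5% of all genes. With 1 strain pair left out, density had 1 to 9 lower and mRNA 0 to 1 lower and 0 higher. With 1 replicate number left out, 1× WT-EDP had 2 lower, 3 copies in Δcpc-3 had 0 and 0 host differences varied. Leaving NCU16635 out of the sum gave 6 lower with 3 copies in Δcpc-3 and 4 varying host differences, against 5.84% of all genes. A minimum of 10 TPM gave 2 lower with OPT codons in Δcpc-3 and 4 varying, against 9.87%. No minimum gave 3 lower mRNAs, 0 with 3 copies and 1 varying, against 2.61%. A trended prior variance gave 2 lower with OPT codons in Δcpc-3. A fold of 2 as a further condition left 0 lower densities. The causes were not tested.

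The mRNA libraries number 1 per strain, so the mRNA and density results rest on the spread between reporters. The fewest reads of an enzyme in a library were 653, in an mRNA library, and whether read numbers limited the results was not tested.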
